A study of Homo sapiens with 18 samples.

Results

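Passage 4 leaders were compared with passage 1 laggers, both made from MiaPaCa-2 cells, with 3 libraries against 3 of the 18 in the series. The libraries were picked by their labels, but the comparison was chosen with earlier results of these data known. MiaPaCa-2 is an established human line of poorly differentiated pancreatic carcinoma. The study asked which genes mark the cells that advance along a nerve, since pancreatic cancer spreads along the nerves that supply the gland. The sciatic nerve was the site of injection, and recovered cells are labelled leaders, the cells ahead, or laggers, the cells behind. Leaders were expanded in culture and put back into nerve, so a passage 4 leader had been through injection and harvest 4 times with culture between, and a passage 1 lagger had been injected 1 time. All groups share the labelled genotype WT, and no drug is named. The other groups of 3 are passage 1, 2 and 3 leaders, and parental cells kept in vitro and never injected.

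The contrast therefore changes 2 things together, the position in the nerve and the number of passages with the culture between them, and these cannot be told apart from the 6 libraries alone. Passage 1 leaders lie between the groups in design, so the difference from laggers to passage 1 leaders (front against rear at 1 passage) and the difference from passage 1 to passage 4 leaders are given beside it for named genes. These 2 steps add up to the whole contrast and share libraries with it and with each other. The sources used here give neither the host of the nerve nor whether RNA was taken at harvest or after regrowth. No source says that replicates are separate animals or cultures. The p-values therefore measure the spread between these libraries only, and that may be technical.

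Cells that move along a nerve meet Schwann cells, axons and a collagen-rich matrix. Programmes studied in perineural invasion include matrix proteolysis, adhesion through integrins, actin remodelling, axon guidance cues and neurotrophic ligands. Cells taken out of tissue can also switch on immediate early genes, which respond within minutes to a stimulus, and heat shock chaperones, which refold damaged proteins. Each of these programmes was read from a gene list, together with lists for cell cycle, metabolism, interferon and antigen presentation and for markers of other cell types in a nerve.

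Of 57445 genes in the count table, 16187 had enough counts to test. By the quasi-likelihood test of edgeR at a Benjamini-Hochberg adjusted p under 0.05, 3048 genes (18.8%) were called. Of these 1375 (8.49% of the tested genes) were higher in passage 4 leaders and 1673 (10.3%) were lower. The median log2 fold change of all tested genes was -0.04. With upper quartile scaling that median was -0.22 and the calls were 927 higher and 2417 lower, a share of 27.7% higher against 45.1% with trimmed-mean scaling. By the same test 10 genes (0.0618%) were called from laggers to passage 1 leaders, and 3237 (20%) from passage 1 to passage 4 leaders. DESeq2 called 372 genes in the first of these steps, so that count depends on the tool, and edgeR called 52 there when lagger replicate 1 was left out. With lagger replicate 2 or passage 1 leader replicate 1 or 3 left out edgeR called 0 after adjustment, and 2210, 1883 and 1984 at an unadjusted p under 0.05. Without 1 of the other lagger, passage 1 or passage 4 leader libraries it called 1 (lagger replicate 3), 3 (passage 1 or passage 4 leader replicate 2), 5 (passage 4 leader replicate 1) or 13 (passage 4 leader replicate 3). Parental, passage 2 and passage 3 libraries were not left out. In the whole contrast, 1536 genes were called without passage 4 leader replicate 3 and 1061 when only the 6 compared libraries were fitted. Every gene called both there and in the whole fit had the same direction. These fits share libraries with the whole fit, so this is not separate support. Values in parentheses after a gene are its log2 fold change ± SE, passage 4 leaders over passage 1 laggers. Levels are in CPM, counts scaled to the size of the library, and are not divided by transcript length, so they compare libraries and not genes.

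**Figure D1:**
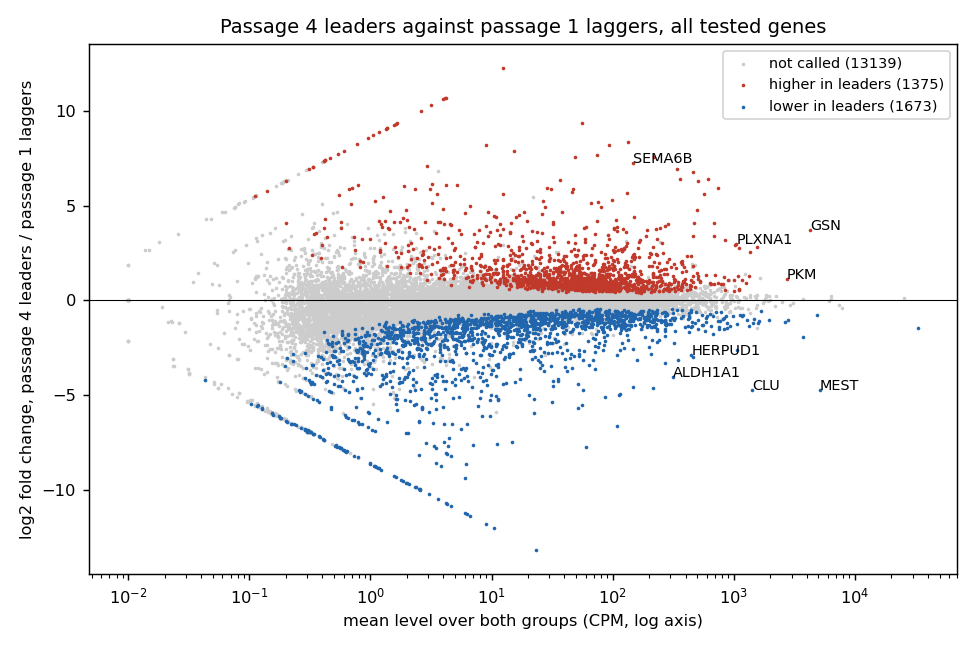
Log2 fold change of passage 4 leaders over passage 1 laggers (vertical axis) against the mean level over both groups in CPM (horizontal log axis) for the 16187 tested genes, with called genes in red (higher) and blue (lower). MEST and CLU lie lowest among the labelled genes, and the straight outer lines of points are genes with 0 counts in 1 of the groups.

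The 3 lagger libraries held 15113462 to 21117967 gene counts and the 3 passage 4 leader libraries 22301278 to 31980851. Reads aligned to more than 1 place took 27.8% to 32.6% of all entries in the lagger columns and 22.3% to 25.8% in passage 4 leaders, and unaligned reads 8.82% to 16.5% and 8.16% to 10.4%. All counts from the mitochondrial genome took 5.91% to 8.47% of gene counts in laggers and 1.95% to 3.33% in passage 4 leaders. The calls moved with transcript length. Among tested genes in the shortest quartile (75 to 1980 bases) 136 were called higher and 662 lower, and in the longest quartile (5030 to 109224 bases) 540 were higher and 227 lower. With offsets for length and GC content per library, an alternative chosen after this was seen, the same quartiles gave 451 higher and 398 lower, and 476 higher and 510 lower. Counts under these offsets are given below for the lists that they move most, and the part of length in each result was not tested further.

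**Figure D2:**
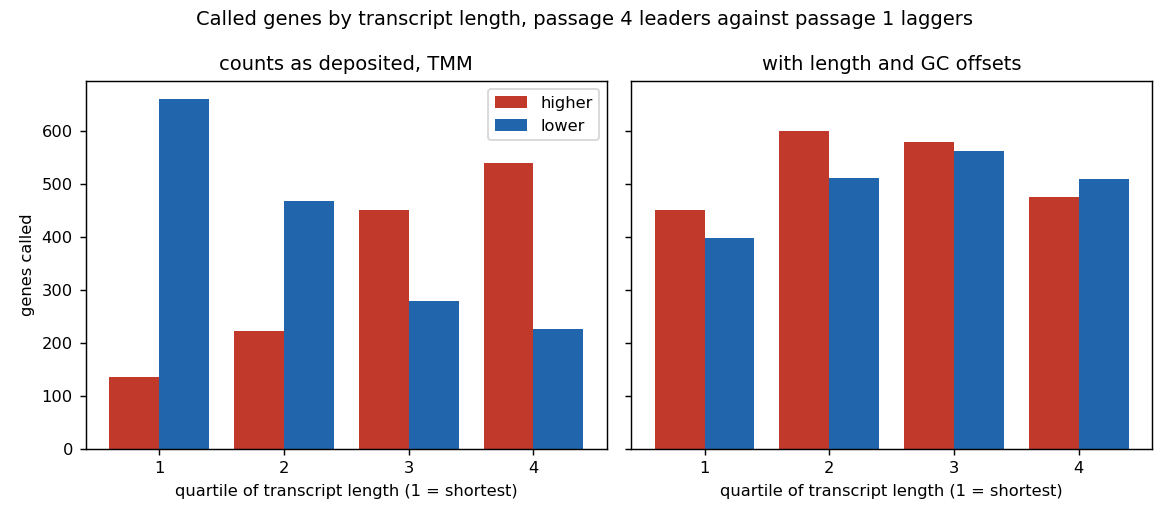
Number of genes called higher (red) and lower (blue) in passage 4 leaders by quartile of transcript length, for the counts as deposited (left) and with offsets for length and GC content (right). Called genes in the shortest quartile were mostly lower (662 against 136) without offsets and near even (398 against 451) with them.

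The identity of the cells was read first. MTAP, which lies in the region deleted in this line, had 0 counts in all 6 libraries. CDKN2A, from the same region, had 0 counts in 5 of them and 0.420 CPM in lagger replicate 3. CDH1, the epithelial cadherin that MiaPaCa-2 is known to lack, read 1.12 CPM at most in these 6 libraries. In passage 1 leaders it read 14.4, 10.7 and 0.871 CPM. VIM, a mesenchymal filament, read 2258, 1983 and 1958 CPM in laggers and 2236, 2243 and 2648 CPM in passage 4 leaders. KRT18, a simple epithelial keratin, read 6688, 4677 and 6159 CPM and 4930, 8271 and 7651 CPM. Neither gene was called (log2 fold changes 0.20 ± 0.14 and 0.25 ± 0.29). Among markers of other cells, SOX10 of Schwann cells, KDR of endothelium and CD163 and CD3E of immune cells were too low to test. Of 12 Schwann cell markers 6 were tested, and the sum over all 12 read 46.1 to 53.3 CPM in laggers and 44.3 to 91.2 CPM in passage 4 leaders. PMP22 (16.4 to 29.9 CPM), NGFR (4.63 to 11.3 CPM) and MBP (1.82 to 51.1 CPM) were present in all 6 libraries, were not called, and were also present in parental cells, MBP at 199 to 235 CPM. EGR2, which is also an immediate early gene, fell from 6.94, 14.6 and 10.7 CPM to 1.83, 1.41 and 1.42 CPM (-2.79 ± 0.56), and ERBB3, a neuregulin receptor, rose from 0.142, 0.239 and 0 CPM to 1.12, 3.20 and 2.58 CPM (4.02 ± 0.84). Of 10 neuron markers, with sums of 10.5 to 24.4 CPM in laggers and 7.28 to 9.15 CPM in passage 4 leaders, 3 were tested. RBFOX3 (-4.32 ± 1.18) and SNAP25 (-4.41 ± 1.39) fell, the first not called without lagger replicate 3 or passage 4 leader replicate 2 or 3 and the second called only without lagger replicate 1 when 1 library was left out. The part of other cells in the results was not tested. Summed fibroblast markers read 1273 to 2152 CPM in laggers and 234 to 495 CPM in passage 4 leaders, most of it from COL1A2 and COL3A1, while DCN and LUM read at most 17.1 CPM in any library and DPT 0. COL1A2, COL3A1, DCN and LUM were called lower and PDGFRA higher, 5 of the 7 fibroblast markers tested. The PDGFRA call was lost without lagger replicate 2 or 3 or passage 4 leader replicate 1 or 3. Summed endothelial and pericyte markers read 43.5 to 441 CPM in laggers and 533 to 1033 CPM in passage 4 leaders, most of it RGS5, which was not called (log2 fold change 1.88 ± 0.66, adjusted p = 0.0577). ESAM was the 1 of 7 tested that was called, higher by 1.80 ± 0.57, and was not called without lagger replicate 2 or 3 or passage 4 leader replicate 2 or 3. Fewer cells of a type and less RNA per cell cannot be told apart in bulk libraries.

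The gene with the smallest adjusted p was MEST, an imprinted gene of the alpha/beta hydrolase family expressed in embryonic mesoderm. MEST read 12500, 8782 and 8322 CPM in the laggers and 408, 517 and 197 CPM in the passage 4 leaders, a log2 fold change of -4.72 ± 0.30 (SE; adjusted p = 4.79e-07). The groups lay more than an order of magnitude apart. Passage 1 leaders stood at 13278 CPM on average, passage 2 at 6628, passage 3 at 2516 and the parental line at 1114. The step from laggers to passage 1 leaders was 0.43 in log2 (adjusted p = 0.429) and the later step -5.15. By these means the drop lay between passage 1 and passage 4, and passage 4 leaders ended below parental cells.

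CLU, a secreted chaperone, fell from 3618, 3093 and 1503 CPM to 106, 112 and 93.3 CPM (log2 fold change -4.72 ± 0.49, adjusted p = 3.07e-05). ALDH1A1, which oxidises retinal to retinoic acid and is used as a stem-like cell marker, fell from 821, 532 and 429 CPM to 25.2, 27.9 and 55.5 CPM (-4.04 ± 0.34, adjusted p = 4.49e-06). Every passage 4 leader lay below every lagger for both genes. ALDH1A1 means were 709 CPM in parental cells, 735 in passage 1 leaders and 278 in passage 3 leaders. CLU means were 162 CPM in parental cells and 1078 in passage 1 leaders.

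Among abundant genes that rose, GSN, which encodes the actin-severing protein gelsolin, went from 181, 987 and 660.3 CPM to 5751, 7105 and 11030 CPM (log2 fold change 3.71 ± 0.55, adjusted p = 0.000357). Its mean was 145 CPM in parental cells, 759.9 at leader passage 1, 1818 at passage 2 and 5172 at passage 3. CAPN2, a calcium-dependent protease of focal adhesions, rose from 472, 309 and 406 CPM to 2565, 2208 and 3449 CPM (2.79 ± 0.33). PYGB, a glycogen phosphorylase, rose from 169, 203 and 346 CPM to 1849, 1248 and 2322 CPM (2.91 ± 0.32). The groups did not overlap for any of these genes. PRNP, the prion protein gene, rose from 338, 212 and 302 CPM to 2011, 1198 and 2519 CPM (2.75 ± 0.33), ECE1, which activates endothelin, from a mean of 403 to 2343 CPM (2.54 ± 0.34), and SERPINA3, an acute-phase protease inhibitor, from 24.5 to 1464 CPM (5.91 ± 0.88).

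**Figure D3:**
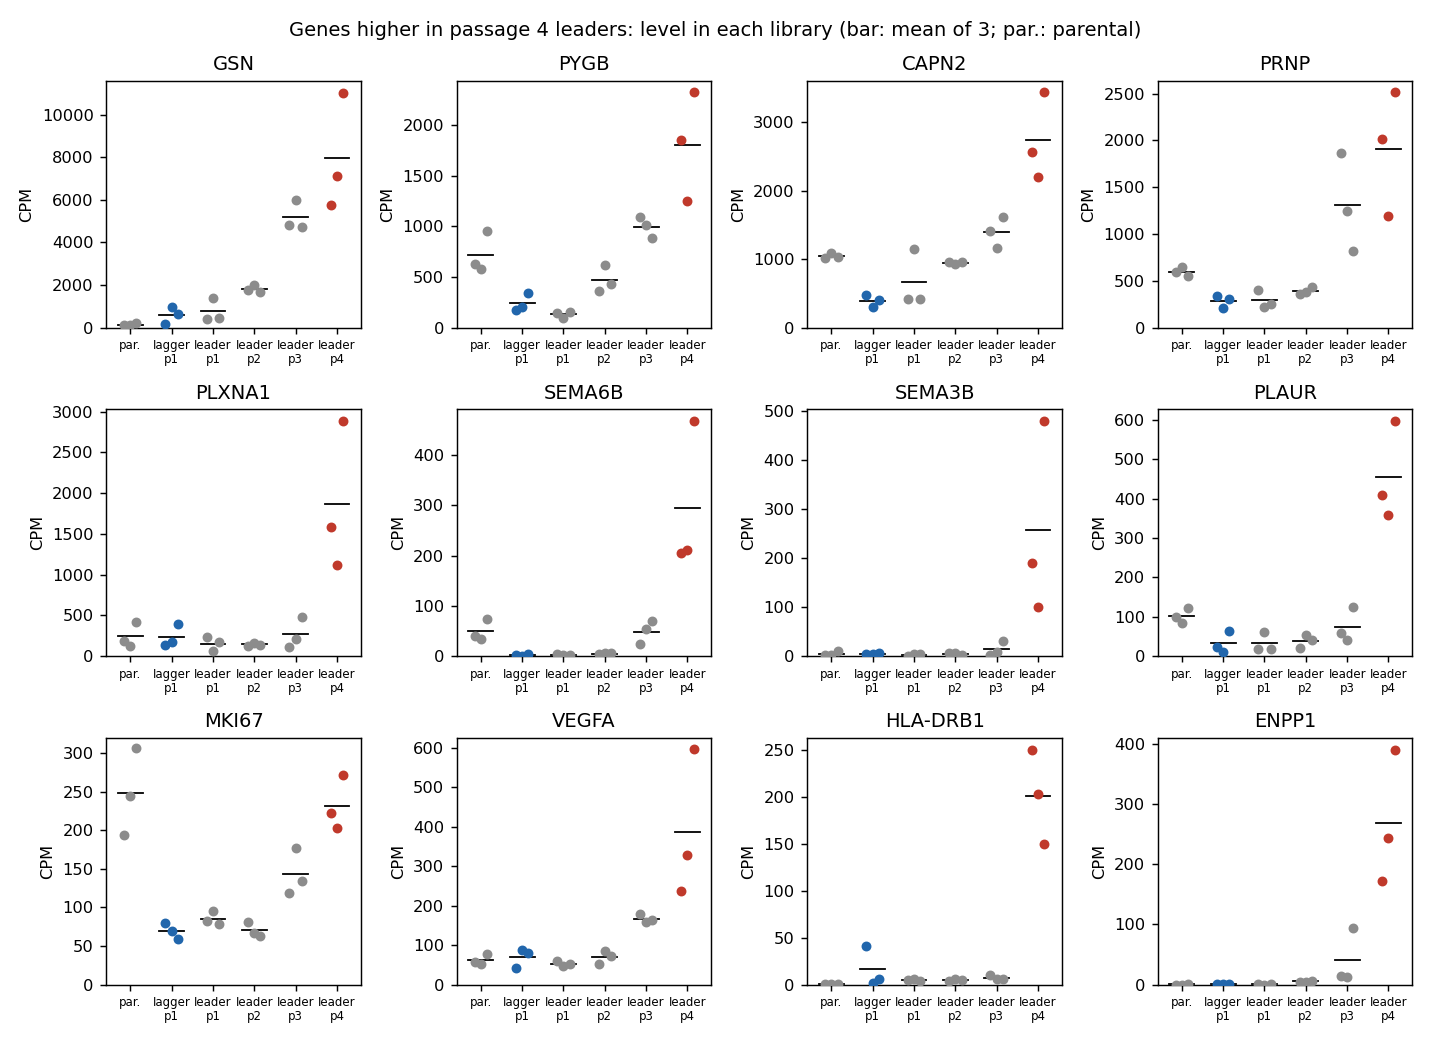
Level in CPM (vertical axes start at 0) of 12 genes called higher in passage 4 leaders, in each library of the 6 groups, with laggers in blue, passage 4 leaders in red and a bar at the mean of 3. GSN, PYGB and CAPN2 climb over the leader passages, while PLXNA1, SEMA3B, PLAUR and HLA-DRB1 stay low until passage 4.

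More stress genes were called lower than higher in passage 4 leaders, and most were not called. Of 27 heat shock chaperones tested, 8 fell and none rose (median log2 fold change -0.30). Of 29 immediate early genes 11 fell and 1 rose (median -0.38), and of 30 genes of the unfolded protein and integrated stress responses 10 fell and 1 rose (median -0.65). These shares stand beside 10.3% lower and 8.49% higher over all tested genes. With length and GC offsets the counts were 10 lower and 1 higher, 11 lower and 6 higher, and 12 lower and 3 higher. Leaving out 1 library in turn gave 4 to 9, 9 to 12 and 6 to 11 lower, with the lowest counts without passage 4 leader replicate 3 for chaperones and without passage 4 leader replicate 1 for the unfolded protein list. Without lagger replicate 3 the immediate early list gave 5 higher.

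HSPA6, the strictly inducible member of the HSP70 family, read 1015, 2221 and 2279 CPM in laggers and 192, 295 and 418 CPM in passage 4 leaders (log2 fold change -2.61 ± 0.36, adjusted p = 0.000199), against 2.67 CPM in parental cells. It has a near-identical pseudogene, so its counts are uncertain. BAG3, a co-chaperone of HSP70 in selective autophagy, read 543, 692 and 712 CPM and 190.1, 179 and 244 CPM (-1.67 ± 0.21). DNAJB1, the main HSP40 partner, read 2151, 2911 and 2861 CPM and 1082, 1267 and 1436 CPM (-1.07 ± 0.19). The groups did not overlap for these 3 genes. The difference for HSPA6 and BAG3 lay mostly in the first step: the step from laggers to passage 1 leaders was -2.10 (adjusted p = 0.0395) and -1.64 (adjusted p = 0.011), and the later step -0.51 (adjusted p = 0.313) and -0.03 (adjusted p = 0.931). Both calls in that first step were lost without lagger replicate 2 or passage 1 leader replicate 1 or 3, and that of HSPA6 also without lagger replicate 3 or replicate 2 of either leader group. Over all these fits the 2 steps were -1.89 to -2.31 and -1.54 to -1.70. The small heat shock protein HSPB1 fell by mean from 3755 to 1859 CPM (-1.01 ± 0.27), a call lost without lagger replicate 3 or passage 4 leader replicate 2. The constitutive chaperones HSPA8 (-0.13 ± 0.17), HSP90AB1 (0.07 ± 0.14) and HSPD1 (-0.11 ± 0.27) did not pass the test. Of the same list, FKBP4 (log2 fold change -0.61) and DNAJB2 (-1.11) were called lower. Both calls were lost without lagger replicate 2 or passage 4 leader replicate 3, and that of DNAJB2 also without passage 4 leader replicate 2. HSPA1A and HSPA1B, which are near-identical copies and uncertain, gave -0.63 ± 0.31 and 0.03 ± 0.23.

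The NR4A orphan receptors, immediate early transcription factors that need no ligand, fell together. NR4A2 read 338, 431 and 328 CPM in laggers and 54.5, 46.2 and 51.9 CPM in passage 4 leaders (log2 fold change -2.85 ± 0.25, adjusted p = 5.95e-06). NR4A3 read 57.1, 43.8 and 49.8 CPM and 4.64, 2.75 and 3.83 CPM (-3.75 ± 0.44). Both were almost silent in parental cells, at means of 0.112 and 0.183 CPM, and the passage 4 leaders lay between parental cells and laggers. NR4A1 went from a mean of 532 to 112 CPM (-2.24 ± 0.29). The growth arrest genes GADD45B (-2.12 ± 0.26) and BTG2 (-1.92 ± 0.22) and the AP-1 subunit FOSB (-1.87 ± 0.35) fell as well. ATF3 was also lower (log2 fold change -1.36), a call kept when any 1 library was left out. The AP-1 subunits FOS and JUN did not pass: FOS read means of 1463 and 1569.6 CPM (0.10 ± 0.26, adjusted p = 0.814) and JUN 1811 and 1757 CPM (-0.04 ± 0.29, adjusted p = 0.935). FOSL1, an AP-1 subunit driven by sustained ERK signalling, was the member that rose, from 13.1, 3.11 and 19.04 CPM to 86.1, 111 and 197 CPM (3.49 ± 0.60, adjusted p = 0.00115).

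In the unfolded protein response, HERPUD1, a membrane component of endoplasmic reticulum associated degradation, read 942, 854 and 564 CPM in laggers and 95.7, 117 and 109 CPM in passage 4 leaders (log2 fold change -2.88 ± 0.21, adjusted p = 1.75e-06). XBP1, the transcription factor spliced by IRE1, read 373, 485 and 346 CPM and 131, 160.3 and 136 CPM (-1.50 ± 0.17, adjusted p = 5.55e-05). HERPUD1 declined at each group mean from laggers (787) through passage 1 (438), 2 (275), 3 (160.4) and 4 leaders (107), toward the parental 62.01 CPM. HSPA5, the lumenal HSP70 known as BiP, fell from a mean of 2002 to 1330 CPM (-0.59 ± 0.15, adjusted p = 0.0116), a call lost without lagger replicate 2 or passage 4 leader replicate 1. Of the ATF4 branch, CHAC1 (-1.97 ± 0.44), DDIT3 (-1.51 ± 0.38), SESN2 (-1.35 ± 0.35) and the cystine carrier SLC7A11 (-2.31 ± 0.44) fell, although the DDIT3 call was lost without passage 4 leader replicate 3 and the SESN2 call without lagger replicate 2 or 3 or passage 4 leader replicate 1, while TRIB3 gave -0.01 ± 0.25 and ASNS -0.66 ± 0.25 and did not pass. The chaperones HSP90B1 (0.77 ± 0.31) and PDIA4 (0.21 ± 0.18) did not pass either.

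**Figure D4:**
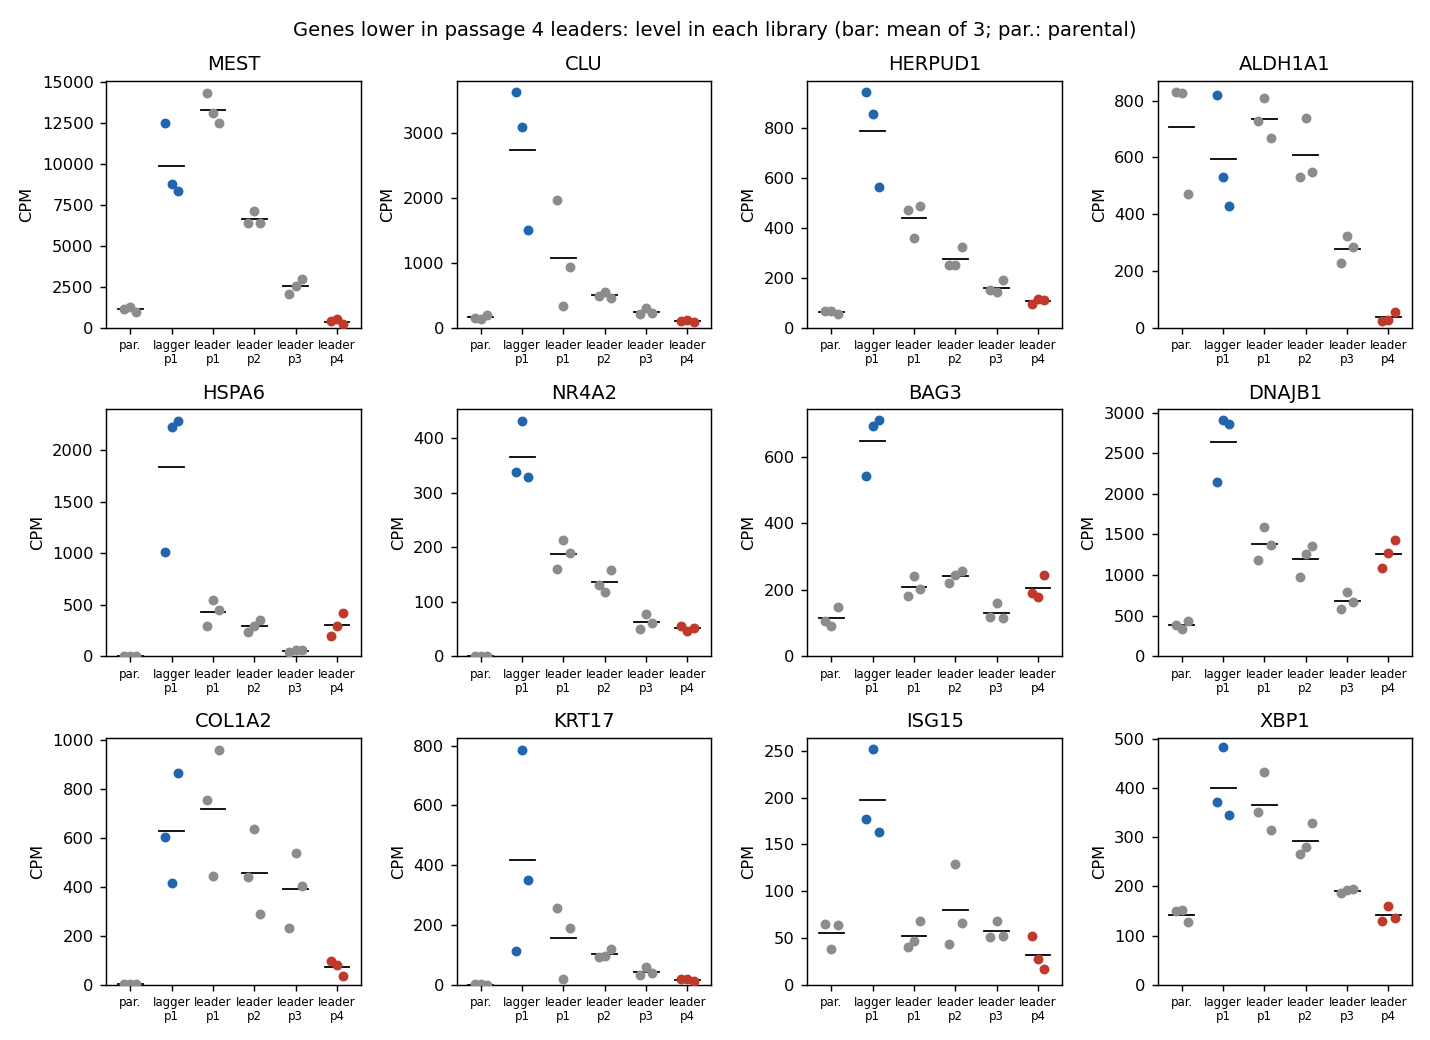
Level in CPM (vertical axes start at 0) of 12 genes called lower in passage 4 leaders, in each library of the 6 groups, with laggers in blue, passage 4 leaders in red and a bar at the mean of 3. MEST and ALDH1A1 remain high in passage 1 leaders and fall over later passages, whereas HSPA6 and BAG3 are already low in passage 1 leaders.

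Of 38 interferon-stimulated genes tested, which encode antiviral effectors, 12 fell and none rose in passage 4 leaders (median log2 fold change -0.91), with 15 lower under length and GC offsets and 7 to 12 lower when 1 library was left out, the lowest without passage 4 leader replicate 3. Without lagger replicate 1, 3 members were called higher. ISG15, a ubiquitin-like modifier, read 177, 252 and 163 CPM in laggers and 51.6, 27.8 and 16.8 CPM in passage 4 leaders (-2.62 ± 0.42, adjusted p = 0.000746), against 55.6 CPM in parental cells and 51.5 CPM in passage 1 leaders. IFI6 read 49.1, 69.2 and 257 CPM and 19.6, 20.3 and 16.6 CPM (-2.73 ± 0.52), and its log2 fold change was -1.67 without lagger replicate 3, the library highest for it. BST2, the tetherin that holds virions at the cell surface, read 327, 186 and 138 CPM and 87.7, 49.96 and 15.8 CPM (-2.09 ± 0.47). IFI27 went from 15.4, 2.35 and 29.4 CPM to 0.803, 0.125 and 0.363 CPM (-5.19 ± 1.12), and BST2 and IFI27 gave -2.72 without passage 4 leader replicate 1 and -4.39 without lagger replicate 3. The groups did not overlap for these 4 genes.

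Promoters of interferon-stimulated genes are known to carry a short element that STAT and IRF factors recognise. The interferon-stimulated response element, taken as GAAA and GAAA with any 2 bases between them, was searched on both strands in RefSeq promoters of 300 bases (250 before to 50 after the start), and 3.57% of 35116 promoters held it. A gene can have several starts in RefSeq, and a member was counted when any of its promoters held the element. Of 30 interferon members matched, 22 held it (26 of their 38 promoters), and of the 10 called ones 8 did. The 180 bases before the start are shown 5′ to 3′ on the gene's strand for 4 called members, chosen after the search because they hold a match. Capitals mark each match, on either strand, and overlapping matches run together.
ISG15 (GRCh38.p14, chr1:1013317-1013496, plus strand): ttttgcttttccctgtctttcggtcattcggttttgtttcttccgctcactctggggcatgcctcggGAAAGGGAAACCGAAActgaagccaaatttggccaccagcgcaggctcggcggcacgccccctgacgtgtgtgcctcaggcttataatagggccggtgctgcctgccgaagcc
IFI6 (chr1:27672193-27672372, minus strand): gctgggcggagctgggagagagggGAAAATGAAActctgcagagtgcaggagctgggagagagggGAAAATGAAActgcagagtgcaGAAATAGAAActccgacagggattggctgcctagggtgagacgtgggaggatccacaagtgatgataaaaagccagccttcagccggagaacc
BST2 (chr19:17405631-17405810, minus strand): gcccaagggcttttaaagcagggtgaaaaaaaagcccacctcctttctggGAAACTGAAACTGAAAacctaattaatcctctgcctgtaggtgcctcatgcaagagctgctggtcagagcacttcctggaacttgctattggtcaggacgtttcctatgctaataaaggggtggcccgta
IFI27 (chr14:94110556-94110735, plus strand): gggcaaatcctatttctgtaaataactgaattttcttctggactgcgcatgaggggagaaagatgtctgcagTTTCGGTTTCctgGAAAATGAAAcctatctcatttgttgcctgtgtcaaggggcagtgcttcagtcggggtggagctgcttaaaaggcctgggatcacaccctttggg
A match describes the letters and is not shown to be a bound site in these cells.

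Stress promoters were searched in the same way. A heat shock element of 3 units (GAA, TTC and GAA, each 2 bases from the next) was found in 0.49% of all promoters, in 8 of 24 matched chaperones (8 of their 38 promoters) and in 1 of the 6 called ones, HSPA6. The endoplasmic reticulum stress element (CCAAT and CCACG with 9 bases between) was found in 0.0769% of all promoters, in 6 of 28 matched members of the unfolded protein list (8 of their 42 promoters) and in 2 of the 10 called ones, HSPA5 and XBP1. The cAMP response element TGACGTCA was found in 1.85% of all promoters, in 1 of 21 matched immediate early genes and in none of the 10 called ones. The called members that hold a match are shown with it in capitals.
HSPA6 (GRCh38.p14, chr1:161524360-161524539, plus strand): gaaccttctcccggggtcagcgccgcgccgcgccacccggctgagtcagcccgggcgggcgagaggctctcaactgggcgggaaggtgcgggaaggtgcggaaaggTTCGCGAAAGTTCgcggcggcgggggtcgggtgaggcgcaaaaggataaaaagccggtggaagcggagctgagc
HSPA5 (chr9:125241344-125241523, minus strand): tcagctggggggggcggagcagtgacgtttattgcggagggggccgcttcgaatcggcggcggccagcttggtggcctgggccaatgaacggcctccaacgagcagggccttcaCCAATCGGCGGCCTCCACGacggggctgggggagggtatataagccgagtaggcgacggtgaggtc
XBP1 (chr22:28800570-28800749, minus strand): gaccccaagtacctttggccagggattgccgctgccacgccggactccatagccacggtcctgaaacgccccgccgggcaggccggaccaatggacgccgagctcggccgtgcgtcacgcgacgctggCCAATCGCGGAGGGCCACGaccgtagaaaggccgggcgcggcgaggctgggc
Most called chaperones and stress genes therefore held no such match in this window, which says only that these letters were not found there.

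Antigen presentation genes moved in both directions, 5 higher and 5 lower of 26 tested (3 lower under length and GC offsets). The higher ones belong to class II presentation and its regulator. HLA-DRB1, HLA-DMA and HLA-DMB (log2 fold change 2.79) kept their calls without any 1 library, while those of HLA-DRA and CIITA rested on few. No member of this list was called higher when only the 6 compared libraries were fitted. HLA-DRB1, a class II beta chain, read 40.7, 1.87 and 5.74 CPM in laggers and 250, 203 and 149.8 CPM in passage 4 leaders (log2 fold change 3.64 ± 0.74, adjusted p = 0.00364). Lagger replicate 1 stood above the other laggers, and without it the log2 fold change was 5.84. HLA-DRB1 is near-identical to other DRB genes and its counts are uncertain. HLA-DRA went from 41.3, 0.287 and 0.140 CPM to 236, 230 and 140 CPM (3.85 ± 1.20), the peptide-loading gene HLA-DMA from 15.01, 1.20 and 4.69 CPM to 62.5, 66.6 and 45.9 CPM (3.06 ± 0.67), and CIITA, the class II transactivator, from 4.67, 0.623 and 0.140 CPM to 13.97, 9.48 and 22.2 CPM (3.04 ± 1.01). The calls of HLA-DRA and CIITA held without lagger replicate 1, at 9.83 and 5.26, and were lost without any 1 of the other 5 libraries. HLA-DMA was called without each library and read 4.43 without lagger replicate 1. CD74, the invariant chain, read 149, 0.479 and 3.64 CPM and 568, 449.8 and 295 CPM but was not called (3.09 ± 1.12, adjusted p = 0.0636). Macrophage and lymphocyte markers, other cells that carry class II, summed to 0.57 to 3.01 CPM in laggers and 0.33 to 1.25 CPM in passage 4 leaders. Of 13 such markers 3 were tested, and PTPRC, at 0 in all laggers and at most 1.03 CPM in passage 4 leaders, was called higher, a call that held only without passage 4 leader replicate 3 when 1 library was left out.

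The genes that fell serve class I. PSMB8, an immunoproteasome subunit, read 123, 2.73 and 5.95 CPM in laggers and 0.714, 0.541 and 0.858 CPM in passage 4 leaders (log2 fold change -5.95 ± 1.07, adjusted p = 0.00163). Lagger replicate 1 was far above the other laggers, and without it the log2 fold change was -2.52. PSMB10 went from a mean of 56.98 to 21.2 CPM (-1.43 ± 0.44), which overlapped between groups and was -0.50 and not called without lagger replicate 1. It was not called without any 1 of the passage 4 leaders either. The class I genes HLA-B (0.22 ± 0.36) and HLA-C (-0.04 ± 0.30) did not pass. The counts of this list depended on lagger replicate 1: without it 9 members were higher and 2 lower, and without any 1 of the other 5 libraries 3 were higher and 2 to 7 lower.

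No cell cycle gene was called lower in passage 4 leaders. Of 33 replication and S phase genes 15 rose and none fell (median log2 fold change 0.72), and of 30 mitosis and G2/M genes 19 rose and none fell (median 1.03). With length and GC offsets 26 and 28 rose. Leaving out 1 library gave 10 to 20 and 10 to 27 higher, highest without lagger replicate 1, and lowest without passage 4 leader replicate 3 for replication and without lagger replicate 2 or passage 4 leader replicate 3 for mitosis (11 without lagger replicate 3). Fitting only the 6 compared libraries gave 6 and 4 higher, the lowest of the 17 alternatives. No member of either list was called lower under any of them. MKI67, which coats mitotic chromosomes and marks cycling cells, read 79.5, 69.8 and 59.3 CPM in laggers and 222, 203 and 271 CPM in passage 4 leaders (1.74 ± 0.21, adjusted p = 7.10e-05), beside 248.6 CPM in parental cells. UBE2C, the ubiquitin-conjugating partner of the anaphase-promoting complex, read 196, 183 and 215 CPM and 513, 545 and 601 CPM (1.48 ± 0.16). TOP2A, which untangles sister chromatids, read 170.2, 91.2 and 33.3 CPM and 346, 349 and 447 CPM (1.95 ± 0.45, or 2.64 without lagger replicate 1). The groups did not overlap for these genes. Among replication genes the polymerase subunit POLA1 (1.53 ± 0.26), the helicase subunit MCM3 (1.13 ± 0.18) and CCNE1 (1.15 ± 0.16), which drives entry into S phase, rose. PCNA (0.48 ± 0.30) and CDC20 (0.30 ± 0.20) did not pass.

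Mitochondrially encoded genes and most ribosomal protein genes were lower. All 13 protein genes of the mitochondrial genome fell (median log2 fold change -1.17), 8 of them under length and GC offsets, 7 without passage 4 leader replicate 3 and 8 without passage 4 leader replicate 2. MT-CO1, a subunit of complex IV, read 6640, 6339 and 4606 CPM in laggers and 2258, 1302 and 1087 CPM in passage 4 leaders (-1.92 ± 0.28, adjusted p = 0.000282), and its means fell in order over passage 1 (5472), 2 (2909.8), 3 (2031) and 4 leaders (1549), toward 931 CPM in parental cells. Of 44 cytosolic ribosomal protein genes 33 fell and none rose (median -0.91), 31 under the offsets, 16 without passage 4 leader replicate 3 and 20 without passage 4 leader replicate 1. RPS14 read 1121, 1062 and 1730 CPM and 458, 581 and 363 CPM (-1.48 ± 0.27). Ribosomal protein genes have many processed pseudogenes, so their counts are uncertain, and reads aligned to more than 1 place were the larger share in laggers. Of 38 nuclear respiratory chain genes 10 fell and 1 rose (median -0.39), with 2 lower without passage 4 leader replicate 3, 4 without passage 4 leader replicate 1 and 6 without lagger replicate 3. COX5B (-1.23 ± 0.26) and UQCRQ (-1.21 ± 0.29, not called without passage 4 leader replicate 3) fell and SDHA gave 0.14 ± 0.17. These genes are short, with a median transcript of 1912 bases for the nuclear respiratory list and 784 bases for the mitochondrial one.

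Hypoxia and glycolysis genes were mixed, 11 higher and 4 lower of 36 tested, with 6 higher without passage 4 leader replicate 3 and 2 lower without passage 4 leader replicate 2 or 3. VEGFA, the angiogenic growth factor, read 43.3, 87.3 and 79.6 CPM in laggers and 236, 328 and 597 CPM in passage 4 leaders (log2 fold change 2.47 ± 0.32, adjusted p = 0.000134). PKM, the last enzyme of glycolysis, read 1499, 1522 and 2181 CPM and 3428, 3320 and 4500 CPM (1.11 ± 0.17, adjusted p = 0.000506). The groups did not overlap for these genes. ANGPTL4 (1.74 ± 0.37) and HK2 (1.35 ± 0.31) rose, and so did NDRG1 (1.84 ± 0.61), whose call was kept only without lagger replicate 2 (2.53), while the glucose transporter SLC2A3 (-1.29 ± 0.18), ADM (-1.41 ± 0.41) and ANKRD37 (-1.90 ± 0.26), which also respond to low oxygen, fell. The ADM call was lost without lagger replicate 3 or any 1 passage 4 leader. GAPDH (-0.25 ± 0.15), LDHA (0.29 ± 0.25) and CA9 (-0.17 ± 0.98) did not pass.

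Of 42 actin and motility genes 14 rose and 2 fell (median log2 fold change 0.33), 19 and 2 under length and GC offsets. The higher count was 10 without lagger replicate 2 and 8 when only the compared libraries were fitted. Upper quartile scaling gave 10 higher and 4 lower. MYO10, a myosin that carries cargo to the tips of filopodia, read 25.02, 20.6 and 58.9 CPM in laggers and 307, 183 and 391.9 CPM in passage 4 leaders (3.08 ± 0.42, adjusted p = 0.000162), beside 1066 CPM in parental cells, and gave 3.67 without lagger replicate 3. VCL, which links integrin sites to actin, read 151, 117 and 141 CPM and 510.4, 414 and 608 CPM (1.91 ± 0.21). PXN, a focal adhesion adaptor, read 48.1, 42.04 and 76.8 CPM and 248, 202 and 374 CPM (2.30 ± 0.29). ACTN4, an actin crosslinker, read 37.2, 39.03 and 63.3 CPM and 199.5, 219.8 and 335 CPM (2.43 ± 0.29). The 2 groups were apart for these 4 genes. Parental means of VCL, PXN and ACTN4 were 1024, 410 and 172 CPM. The members that fell, MYLK (-3.97 ± 0.84) and CNN1 (-3.87 ± 1.0), are known from contractile smooth muscle, and gave -3.09 without lagger replicate 2 and -3.21 without passage 4 leader replicate 3. ACTB (0.11 ± 0.14), CFL1 (0.02 ± 0.19) and RHOA (-0.03 ± 0.15) did not pass.

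Of 27 genes of matrix proteolysis and plasminogen activation 9 rose and 2 fell (median log2 fold change 0.69), with 4 higher without passage 4 leader replicate 3 and 5 without lagger replicate 2 or passage 4 leader replicate 1. PLAU, the urokinase that turns plasminogen into plasmin, read 65.4, 14.8 and 158 CPM in laggers and 478, 762 and 1298 CPM in passage 4 leaders (3.42 ± 0.69, adjusted p = 0.00347). PLAUR, its receptor, read 22.8, 10.7 and 64.3 CPM and 409, 359 and 597 CPM (3.81 ± 0.67, adjusted p = 0.00137). Lagger replicate 3 was the highest lagger for both, and without it the log2 fold changes were 4.38 and 4.74. ANXA2, which docks plasminogen at the surface, rose from a mean of 759.5 to 1598 CPM (1.07 ± 0.20). Its partner S100A10 was called as well (1.14 ± 0.37, adjusted p = 0.042), but not in 9 of the 17 alternatives. The urokinase inhibitor SERPINB2 had 0 counts in laggers and 2.01, 18.6 and 3.27 CPM in passage 4 leaders, at least 141-fold higher with laggers set at 3 counts over the group, or at least 49.7-fold without passage 4 leader replicate 2. Its call (adjusted p = 0.0407) was lost without any 1 of the 6 libraries. The metalloprotease inhibitor TIMP1 (0.19 ± 0.29) did not pass. TIMP3, of the same family, fell from 0, 46.2 and 19.7 CPM to 0.357, 0 and 0 CPM (-7.59 ± 2.30), with lagger replicate 1 at 0, and its call was kept only without that library.

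Of 19 collagen genes tested 5 fell and 2 rose (median log2 fold change -1.31), with 2 lower without lagger replicate 3 or passage 4 leader replicate 3. COL1A2 read 603, 413 and 865 CPM in laggers and 95.5, 78.8 and 37.04 CPM in passage 4 leaders (-3.15 ± 0.43, adjusted p = 0.000167). COL3A1 read 619, 848 and 1161 CPM and 381, 298 and 175 CPM (-1.62 ± 0.43, adjusted p = 0.0165), a call lost without lagger replicate 3 or passage 4 leader replicate 3. Parental cells held 0.879 and 7.07 CPM of these fibrillar collagens and passage 1 leaders 719 and 952. These genes are also fibroblast markers. The summed fibroblast markers given above moved with them, and their part in the collagen result was not tested. COL5A2, which parental cells also express (1196 CPM), fell from 1298, 1070 and 982 CPM to 564, 289 and 311 CPM (-1.53 ± 0.23). The members that rose were COL17A1, a hemidesmosome collagen, from 11.9, 7.95 and 32.3 CPM to 121, 108 and 123 CPM (2.76 ± 0.44, or 3.54 without lagger replicate 3), and the basement membrane gene COL18A1 (1.92 ± 0.49), whose call was lost without passage 4 leader replicate 1.

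Of 24 integrin and laminin genes 5 rose and 2 fell, with 2 higher without lagger replicate 2 or passage 4 leader replicate 3. ITGA3, a laminin-binding alpha chain, read 44.7, 59.2 and 228 CPM in laggers and 315, 377 and 655 CPM in passage 4 leaders (log2 fold change 2.02 ± 0.55, adjusted p = 0.0177). Without lagger replicate 3 this was 3.09, and the call was lost without lagger replicate 2 or passage 4 leader replicate 3. ITGAV, which pairs with several beta chains, read 86.8, 60.7 and 54.5 CPM and 172, 158 and 178 CPM (1.33 ± 0.32). ITGB1 (0.71 ± 0.24) and LAMC1 (1.18 ± 0.32) rose, and LAMA3 (-2.17 ± 0.66) and LAMC3 (-1.05 ± 0.30) fell. These were weak calls: LAMC1 was lost without passage 4 leader replicate 3 (0.74), LAMC3 without that library, passage 4 leader replicate 2 or lagger replicate 3, LAMA3 without any but lagger replicate 2 or passage 4 leader replicate 1, and ITGB1 without any but lagger replicate 1.

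Of 41 axon guidance genes tested 6 rose and 5 fell, in all 26.8% beside 18.8% of all tested genes, and 8 fell under length and GC offsets. PLXNA1, a semaphorin receptor, read 134, 171 and 396 CPM in laggers and 1581, 1123 and 2885 CPM in passage 4 leaders (log2 fold change 3.0 ± 0.62, adjusted p = 0.00414). Without lagger replicate 3 it gave 3.59. Passage 3 leaders still stood at 270.3 CPM on average. SEMA6B, a transmembrane semaphorin, read 1.84, 0.623 and 3.43 CPM and 206, 212 and 467 CPM (7.27 ± 0.67, adjusted p = 8.48e-06, or 7.88 without lagger replicate 3). SEMA3B, a secreted semaphorin, read 4.34, 5.17 and 5.67 CPM and 190.1, 99.8 and 478 CPM (5.66 ± 1.02), and 4.87 without passage 4 leader replicate 3. NRP2, a co-receptor for secreted semaphorins, rose (2.06 ± 0.44). SEMA3C, of the same secreted class, fell from 551, 345 and 243 CPM to 92.97, 107 and 48.1 CPM (-2.20 ± 0.41), and SEMA3F (-2.87 ± 0.70), the netrin NTN4 (-4.26 ± 0.81) and the ephrin EFNA1 (-2.49 ± 0.54) fell too. SEMA3F was -1.49 and not called without lagger replicate 3, EFNA1 -1.65 without lagger replicate 2 and NTN4 -5.55 without passage 4 leader replicate 3. Without lagger replicate 1 the lower count was 10 and without lagger replicate 3 it was 3.

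Of 20 tested ligands and receptors named in nerve invasion 4 rose and 1 fell, with 2 higher without passage 4 leader replicate 3. LIF, a cytokine of the interleukin 6 family, read 26.8, 28.5 and 40.5 CPM in laggers and 190.4, 122 and 132 CPM in passage 4 leaders (log2 fold change 2.21 ± 0.35, adjusted p = 0.000633). L1CAM, a neural adhesion molecule, read 24.97, 44.8 and 50.7 CPM and 90.9, 67.97 and 117 CPM (1.20 ± 0.33), a call lost without passage 4 leader replicate 3. RET, the receptor kinase for GDNF family ligands, had 0, 6.94 and 2.73 CPM in laggers and 0 counts in passage 4 leaders (adjusted p = 0.0269), a call lost without lagger replicate 2 or any 1 passage 4 leader. GFRA1, NTRK2 and CX3CR1 had too few counts to test. GDNF (-2.53 ± 0.94), ARTN (-2.79 ± 1.13) and BDNF (-2.05 ± 0.84) were low, with lagger means of 2.18, 1.39 and 13.5 CPM, and did not pass.

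ERK feedback genes, which are induced by ERK and dampen it, gave 9 higher and 2 lower of 18 tested (median log2 fold change 0.56). The higher count was 5 without lagger replicate 2 or passage 4 leader replicate 1 or 3, and 5 with upper quartile scaling. Fitting only the 6 compared libraries gave 2 higher and 0 lower. SPRY4 read 46.4, 67.4 and 148 CPM in laggers and 331, 270 and 450.4 CPM in passage 4 leaders (2.01 ± 0.34, adjusted p = 0.00112, or 2.61 without lagger replicate 3). EPHA2 (1.29 ± 0.27), SPRED2 (1.01 ± 0.23) and SPRY2 (0.82 ± 0.16) rose too. SPRED2 and SPRY2 were not called when only the 6 compared libraries were fitted. DUSP6, a phosphatase of ERK, gave 1.32 ± 0.71 and did not pass, and no member was lower without lagger replicate 3. The NF-kB and cytokine list gave 4 higher and 2 lower of 24, with BIRC3 (3.43 ± 0.94) and NFKB2 (1.25 ± 0.38) higher and CSF1 (-3.06 ± 0.54) lower. It gave 7 higher under length and GC offsets, 1 higher without passage 4 leader replicate 3 and 6 lower without passage 4 leader replicate 1, and the BIRC3 and NFKB2 calls were lost without several single libraries, lagger replicate 2 and passage 4 leader replicate 3 among them.

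YAP and TEAD targets gave 6 higher and 3 lower of 23. WWTR1, which encodes the coactivator TAZ, read 182, 126 and 123 CPM in laggers and 635, 513 and 601 CPM in passage 4 leaders (log2 fold change 2.02 ± 0.22, adjusted p = 3.63e-05). NT5E, an ectoenzyme that makes adenosine, read 12.7, 6.46 and 12.5 CPM and 223, 211 and 168 CPM (4.25 ± 0.76). Parental means of WWTR1 and NT5E were 300 and 191 CPM. AMOTL2 (-1.58 ± 0.33) and AJUBA (-1.78 ± 0.40), junction-associated proteins that bind regulators of the pathway and are on the target list, fell. Under length and GC offsets 5 members were lower. TGF-beta targets gave 4 higher and 2 lower of 22, with PMEPA1, a feedback inhibitor, from 6.14, 13.02 and 23.9 CPM to 149.9, 117 and 311 CPM (3.75 ± 0.51). ID2 (-3.62 ± 0.73) and ID3 (-2.52 ± 0.55), which respond to BMP signals, fell, with values of -2.0 and -1.61 without lagger replicate 3. Under length and GC offsets 4 TGF-beta targets were lower. Under upper quartile scaling this list gave 2 higher and 5 lower, without lagger replicate 1 it gave 6 lower, and without lagger replicate 2 or passage 4 leader replicate 1 or 3 it gave 2 higher.

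Keratins gave 5 lower and 1 higher of 15. Those that fell are basal or stratified keratins. KRT17 read 112, 786 and 352 CPM in laggers and 18.7, 19.6 and 11.3 CPM in passage 4 leaders (log2 fold change -4.66 ± 0.80, adjusted p = 0.00114), and -3.81 without lagger replicate 2. KRT16 (-3.58 ± 0.77), KRT5 (-2.46 ± 0.69) and KRT14 (-5.61 ± 1.19, or -4.67 without lagger replicate 3) fell too, KRT5 with overlapping groups and a call lost without lagger replicate 2 or passage 4 leader replicate 2 or 3. KRT16 and KRT14 share long near-identical stretches with KRT17 and with their pseudogenes, so these counts are uncertain. Without passage 4 leader replicate 3 there were 3 lower, and the simple keratin KRT19 (-1.0 ± 0.38, adjusted p = 0.0754) did not pass. Other epithelial genes gave 3 higher and 4 lower of 28 (1 lower without lagger replicate 2), with the junction gene JUP falling from 65.5, 189.5 and 167 CPM to 24.4, 33.2 and 25.2 CPM (-2.35 ± 0.39) and the protease inhibitor SPINT2 rising from 147, 215 and 244 CPM to 534, 912 and 709 CPM (1.83 ± 0.22). Mesenchymal genes gave 1 higher and 2 lower of 21, shares under or near those of all genes, with 5 higher without lagger replicate 3 and 3 higher under length and GC offsets, and with SNAI1, a repressor of CDH1, falling from 24.1, 44.3 and 47.5 CPM to 7.59, 6.86 and 4.29 CPM (-2.63 ± 0.36).

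The remaining lists held smaller counts. Oxidative defence and drug efflux genes gave 4 higher and 6 lower of 32 (2 higher without lagger replicate 2, 7 higher under length and GC offsets), with ALDH1A3 (3.60 ± 0.79, or 4.51 without lagger replicate 3) and NQO1 (1.30 ± 0.27) higher and AKR1C2 (-4.28 ± 0.86, or -2.47 without lagger replicate 1), AKR1C1 (-3.43 ± 0.84, or -1.44 and not called without lagger replicate 1) and HMOX1 (-1.65 ± 0.32) lower. AKR1C genes are near-identical and uncertain. Cholesterol and fatty acid genes gave 4 lower and none higher of 27 (2 lower without passage 4 leader replicate 3, 7 lower under the offsets), among them INSIG1 (-1.30 ± 0.27) and SREBF1 (-1.04 ± 0.26). S100 genes gave 3 higher and 2 lower of 14, and none of the higher calls was kept without lagger replicate 2 or passage 4 leader replicate 1. Of the lower ones S100A8 was lost without any 1 of the 6 libraries and S100A1 without any but lagger replicate 1. Under the offsets 6 S100 genes were higher. The share called was 14.8% for the cholesterol list, 25% for the nerve invasion, NF-kB and epithelial lists and 27.3% for TGF-beta targets, beside 18.8% of all tested genes.

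**Figure D5:**
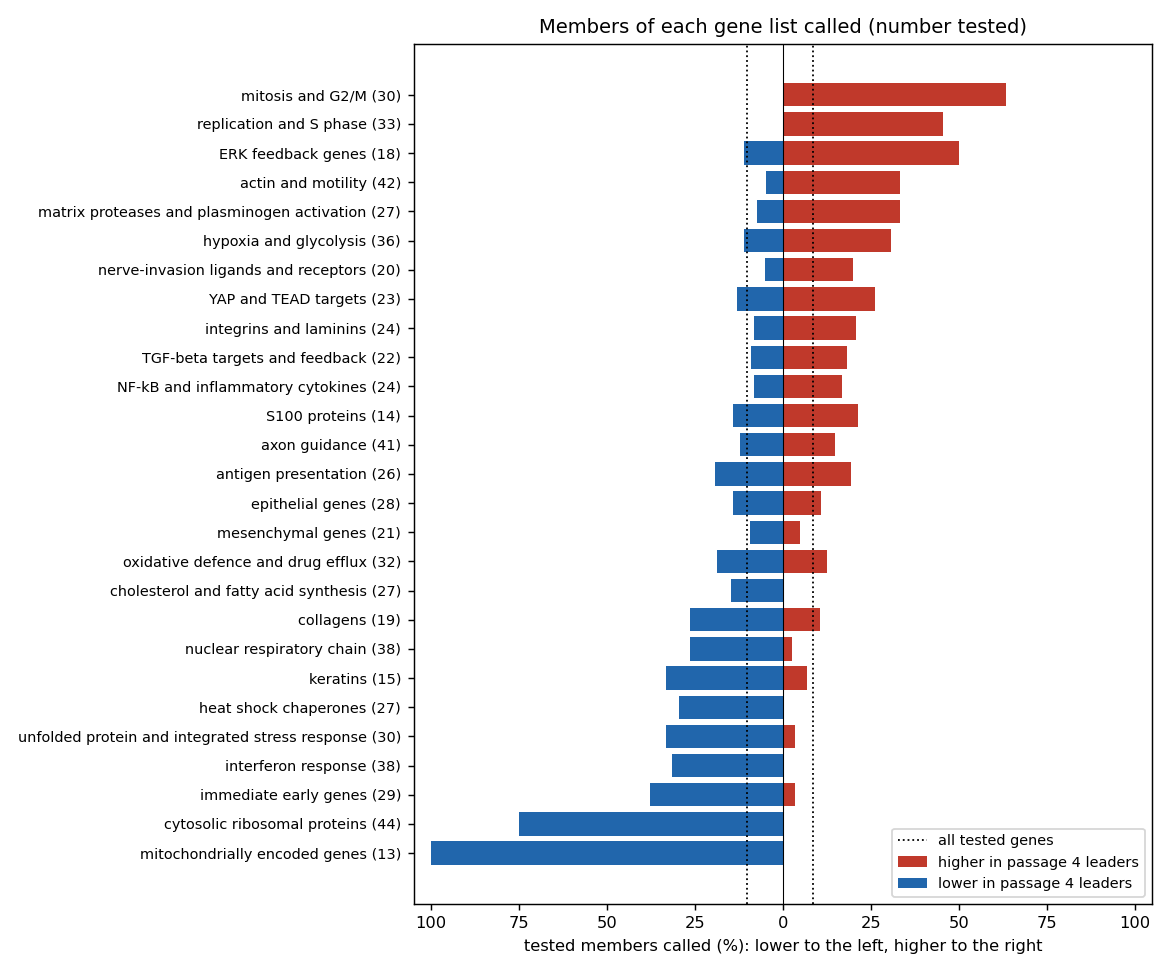
Percent of the tested members of each of 27 gene lists called lower (blue, to the left) and higher (red, to the right) in passage 4 leaders, with the number tested in parentheses and dotted lines at the shares over all tested genes (10.3% lower and 8.49% higher). Cell cycle lists stand at the top with no member lower, and mitochondrially encoded and ribosomal protein genes at the bottom with no member higher.

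Some genes were present in only 1 of the groups or nearly so. ENPP3, a surface pyrophosphatase, had 0 counts in all 3 laggers and read 20.9, 31.7 and 21.6 CPM in passage 4 leaders, at least 450.2-fold higher with laggers set at 3 counts over the group. Its relative ENPP1 rose from 0.661, 0.670 and 1.19 CPM to 172, 244 and 389.7 CPM (log2 fold change 8.35 ± 0.99, adjusted p = 6.47e-05). PRSS22, a serine protease, rose from 0, 0.0958 and 0.490 CPM to 67.4, 75.6 and 193 CPM (9.35 ± 1.10, or 11.04 without lagger replicate 3), and CALB2, the calcium buffer calretinin, from 0.142, 1.20 and 0.840 CPM to 70.03, 323 and 45.9 CPM (7.66 ± 0.86, or 6.33 without passage 4 leader replicate 2). HHLA2 and ZP4 also had 0 counts in laggers. Their bounds of at least 145-fold and 174-fold higher came down to 76.2 without passage 4 leader replicate 1 and 46.1 without passage 4 leader replicate 3. C7, a complement gene, read 509, 34.4 and 10.1 CPM in passage 4 leaders, so 1 library held most of it, and its fold change was not called by limma-voom.

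In the other direction WFIKKN2, a secreted protease inhibitor that binds myostatin, read 2.69, 125 and 12.9 CPM in laggers and 0 counts in passage 4 leaders, at least 1325-fold lower, or at least 174-fold without lagger replicate 2. BDKRB2, the bradykinin B2 receptor, read 2.83, 26.9 and 6.37 CPM in laggers and 0 counts in passage 4 leaders, at least 331-fold lower (109 without lagger replicate 2). HAPLN1, which links hyaluronan to proteoglycans, read 3.26, 14.03 and 20.6 CPM and 0 counts, at least 305-fold lower (230.2 without lagger replicate 3). The level differed widely among the laggers for each of these genes. SLC12A3 (232), FCER2 (195), CALML3 (606) and TRIM22 (268) also had 0 counts in passage 4 leaders, the fold in parentheses being the lower bound, which dropped to 118, 52.6, 31.7 and 28.3 without the highest lagger. Adjusted p was 0.00894 for CALML3 and 0.0116 for TRIM22, and both calls were lost when only the 6 compared libraries were fitted.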

How the data were processed

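RNA-seq was measured in 18 libraries of 6 groups, 3 each. The deposited table holds whole-number read counts per gene made by the authors. Per the submitters' processing notes the tools were cutadapt 1.6, STAR 2.5.0a, HTSeq 0.5.3 and DESeq 1.22.1, and the genome build was not stated there or in the labels. Per the labels' protocols, 2 ng of RNA was amplified with a kit that keeps no strand, so a gene and its antisense or overlapping partner cannot be told apart. The 5 entries that name no gene (37.4% to 56.3% of entries in the 6 compared libraries) were left out of totals and tests.

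The counts were fitted with edgeR 4.0.16 in R 4.3.3 (quasi-likelihood F test, group means over all 18 libraries, TMM scaling, filterByExpr). Benjamini-Hochberg adjustment ran over all tested genes, and a call needs an adjusted p under 0.05. An SE is the absolute log2 fold change divided by the square root of F. Folds against 0 counts are lower bounds with 3 counts over the group, and cover counting error only. Promoters came from RefSeq and transcript lengths (longest transcript) from GENCODE 29, which matched 97.57% of tested genes.

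Genes were named by this rule: the 12 largest called changes per direction with at least 5 CPM and no overlap, the 8 called genes per direction with the largest CPM difference, and up to 4 members per list with the smallest adjusted p. Other members are printed with their values and were chosen after these were seen. The compared groups and the lists were chosen with earlier results of these data known. The alternatives were other scalings, filters, fitted libraries and tools (limma-voom with limma 3.58.1, DESeq2 1.42.0), 1 library left out in turn, a replicate block, length and GC offsets, and for the 2 steps each passage 1 leader left out, the last 2 chosen after seeing the data. The script was tested on simulated data.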

Additional observations from a re-analysis of the deposited data

How the results depend on the processing

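Without 1 of the 6 compared libraries the count of genes changed in passage 4 leaders against passage 1 laggers ran from 1536 to 3432, higher from 784 to 1630 and lower from 752 to 1802, lowest without passage 4 leader replicate 3 and highest without lagger replicate 1. Fitting only the 6 compared libraries gave 1061, 458 and 603. Length and GC offsets gave 2107 higher of 4088. DESeq2 called 3922 and limma-voom 2977. From laggers to passage 1 leaders the count was 257 without a filter on low counts, 16 with the 15 injected libraries, 71 with the offsets, 27 by limma-voom and 372 by DESeq2. It was 0 to 52 without 1 lagger, passage 1 leader or passage 4 leader library. From passage 1 to passage 4 leaders it was 3237, with 1512 to 2818 without 1 library of these groups (lowest without passage 4 leader replicate 3, and 2113 without passage 1 leader replicate 3) and up to 3866 without a lagger, a group in neither arm. The causes of these differences were not tested. Fits that leave some libraries out also rest on fewer libraries. Deviations from the group means correlated little between samples with the same replicate number (r = 0.0064, 0.0064 and 0.130, best partners 2, 1 and 3). These few values cannot show whether a number stands for a shared harvest or batch, which the labels do not say. With the replicate block 2694 genes were called in the whole contrast and 3 in the step from laggers to passage 1 leaders. Of the named genes called, 103 of 148 were called under every alternative that gave a value, and no called gene changed direction. The alternatives reuse the same counts, so the shared direction is not separate support.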

Other observations

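Entries that share sequence with MEST moved with it. The processed pseudogenes MESTP1 (-4.43 ± 0.38), MESTP2 (-4.12 ± 1.09), MESTP3 (-4.97 ± 0.38) and MESTP4 (-4.73 ± 0.54) were all lower in passage 4 leaders, in log2 fold change ± SE. These entries were chosen after their values were seen, and reads cannot be assigned between near-identical copies with certainty.

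The step from passage 1 laggers to passage 1 leaders held 10 called genes. RUNX1, a transcription factor of blood and epithelium, was lower in passage 1 leaders (log2 fold change -1.36) and higher in passage 4 leaders than in laggers (1.98 ± 0.21). AGR2, a disulfide isomerase of mucous cells, and ERBB3, a neuregulin receptor, were higher in passage 1 leaders by 5.90 and 4.96, and gave -1.64 ± 0.98 and 4.02 ± 0.84 in passage 4 leaders. GPX8 was higher by 1.39, and BAG3, HSPA6, AMOTL2, PARP3, TRIM26 and SPSB1 were lower. No gene was called in this step by edgeR without lagger replicate 2 or passage 1 leader replicate 1 or 3, where 2210, 1883 and 1984 had an unadjusted p under 0.05.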
